A study of Mus musculus with 7 samples.

Results

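Pericytes of the mouse forebrain were described from in situ transcript counts, as 1944 of 384076 segmented cells. They were chosen by counts in the cell: at least 50 transcripts in total, at least 3 of Ano1 and Carmn together, at least 5 of Ano1, Carmn and Cspg4 together, at most 1 of Acta2, none of Pdgfra, at most 3 of Dcn and Col1a1, and at most 5 of the neuronal genes Slc17a6, Slc17a7, Gad1 and Gad2. The measurement was Xenium, which images single RNA molecules in a tissue section with a panel of gene probes, here 297 genes. The study examined the anterior thalamic nuclei in 7 fresh-frozen coronal hemisections of wild-type (WT) brain, each 10 µm thick and holding the other regions of the hemisphere at that level too. Posterior sections (bregma -0.94 mm) were replicates 1, 3 and 4, intermediate sections (bregma -0.70 to -0.82 mm) replicates 1 and 2, and anterior sections (bregma -0.58 mm) replicates 1 and 2. All sections carry the same genotype and no treatment. The labels give neither age, sex nor strain, and do not say that sections came from separate animals. For positions and shares, p-values measure the spread between sections. For cell sets compared within sections, they measure how the difference varies from section to section. Either spread may be technical.

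Pericytes are mural cells that sit in the basement membrane of capillaries and wrap the endothelial tube. In the brain they are known for supporting the blood-brain barrier and for setting the tone of capillaries, through calcium entry, calcium-activated chloride channels and the relaxing action of nitric oxide and cyclic GMP. Smooth muscle cells, their neighbours on arterioles, carry contractile proteins such as the actin of Acta2, and perivascular and meningeal fibroblasts lay down collagen outside the vessel wall. A section holds these cells pressed against each other and against astrocyte endfeet, so a segmented cell can include transcripts of its neighbours.

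Pericytes were set against 3 other sets of cells from the same sections. These were 1175 Acta2-high cells (at least 6 Acta2 transcripts), 5801 endothelial cells (at least 10 of Cldn5 and Pecam1) and 4580 fibroblasts (at least 8 of Dcn and Col1a1), each with limits on the markers of the others. Pericytes numbered 239 to 334 in a section and had a median of 205.5 transcripts per cell, against 194 in Acta2-high cells, 224 in endothelial cells and 229.5 in fibroblasts. Summed over a section, pericytes held 48620 to 75720 transcripts. Control probes, which match no mouse transcript, gave 0.353 to 1.16 counts per pericyte and 0.430 to 1.11 per endothelial cell. They gave fewer in Acta2-high cells (0.155 to 0.443) and fibroblasts (0.130 to 0.445). Over all sections the means were 0.724 per pericyte, 0.761 per endothelial cell, 0.334 per Acta2-high cell and 0.308 per fibroblast. The part of this unequal background in the comparisons was not tested. In the whole series 16 cells shared their barcode stem with another cell.

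The start sites of 3 genes on which the results turn are shown here, because each was called higher in pericytes than in every other set as first drawn. The windows run from 250 bases before to 50 bases after the start in the RefSeq table (GRCm38.p6): Inpp4b at chr8:81342312-81342611 on the plus strand, Trpc4 at chr3:54155807-54156106 on the plus strand, and Nts at chr10:102490369-102490668 on the minus strand. Capitals mark matches on either strand to the RBPJ core TGGGAA, the nuclear receptor half-site AGGTCA, the AP-1 site TGAGTCA, the cyclic AMP response element TGACGTCA and its variant TGACATCA.
Inpp4b: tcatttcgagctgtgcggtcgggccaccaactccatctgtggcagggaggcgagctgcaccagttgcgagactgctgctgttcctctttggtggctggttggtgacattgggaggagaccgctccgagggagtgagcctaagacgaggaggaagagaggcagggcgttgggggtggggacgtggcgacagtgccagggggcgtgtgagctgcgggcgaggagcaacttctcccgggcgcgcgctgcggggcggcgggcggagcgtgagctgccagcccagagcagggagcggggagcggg
Trpc4: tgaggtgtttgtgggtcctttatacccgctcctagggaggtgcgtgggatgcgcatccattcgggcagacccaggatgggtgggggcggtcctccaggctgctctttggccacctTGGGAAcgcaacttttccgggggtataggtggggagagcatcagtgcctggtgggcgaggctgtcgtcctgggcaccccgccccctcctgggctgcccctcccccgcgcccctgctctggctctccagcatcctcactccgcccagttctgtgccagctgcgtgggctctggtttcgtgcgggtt
Nts: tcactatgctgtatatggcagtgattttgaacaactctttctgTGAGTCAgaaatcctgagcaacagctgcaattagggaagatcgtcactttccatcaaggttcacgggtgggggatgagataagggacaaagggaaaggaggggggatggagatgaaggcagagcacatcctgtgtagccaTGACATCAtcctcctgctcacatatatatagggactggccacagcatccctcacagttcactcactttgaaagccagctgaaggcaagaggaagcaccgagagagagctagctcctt
The Trpc4 window held the RBPJ core, 135 bases before the start. The Nts window held the AP-1 site, 207 bases before the start, and the cyclic AMP response element variant, 67 bases before the start. The Inpp4b window held none of the 5 motifs. Among 32851 promoters of the same length, 25.6% held TGGGAA, 16.3% AGGTCA, 5.2% TGAGTCA, 1.79% TGACGTCA and 3.62% TGACATCA, and the matches are descriptions only.

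The genes of the rule chose the cells, and their levels are given as a description. Ano1, a calcium-activated chloride channel, had 2.60 ± 0.13 transcripts per pericyte (SD over 7 sections), and the lowest and highest section had 2.35 and 2.75. Carmn, a long non-coding RNA of mural cells that hosts miR-143 and miR-145, had 3.86 ± 0.33 per pericyte, and Cspg4, the NG2 proteoglycan, had 4.5 ± 0.28. The 3 markers together gave 10.97 transcripts per pericyte (10.5 to 11.5 by section), against 4.49 in Acta2-high cells, 0.268 in endothelial cells and 0.431 in fibroblasts. Cells just inside the limit on Ano1 and Carmn (236 cells with 3) had 2.27 Gjc1 and 2.12 Inpp4b transcripts, against 2.13 and 1.84 in the 104 cells just outside (with 2). At the limit on the sum of the markers, the 134 cells just inside had 1.52 Gjc1 and 1.33 Inpp4b transcripts, against 0.875 and 1.06 in the 160 cells just outside. At the limit on Acta2, the 125 cells with 1 transcript had 3.08 Gjc1 and 2.88 Inpp4b, against 3.03 and 3.06 in the 33 cells with 2. Median transcripts per cell inside and outside were 178 and 160.5 at the first limit, 155.5 and 172 at the second, and 231 and 170 at the Acta2 limit. The limits on the markers thus cut through a slope of raw levels, and the Acta2 limit left a few cells of like raw levels outside. Depth was unequal at each limit, and its part was not tested.

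The label was set beside genes that the rule did not use. Gjc1, which encodes the gap junction protein connexin 45, or Inpp4b, a lipid phosphatase, was counted in 97.1% of pericytes, against 64.2% of Acta2-high cells, 59.7% of endothelial cells and 45.5% of fibroblasts. With each cell thinned to 50 transcripts the shares were 73.7%, against 33.4%, 20.0% and 13.9%, in the same order. The Acta2-high and fibroblast sets also held Spag16-positive cells (365 of the 1175 Acta2-high cells and 495 of the 4580 fibroblasts), and without cells of more than 1 Spag16 or Htr2c transcript the differences from Acta2-high cells were log2 0.48 for Gjc1 and 0.43 for Inpp4b, against log2 1.01 and 1.13 with all cells. Phospholamban (Pln), which regulates the calcium pump of muscle and marks arteriolar smooth muscle here, was counted in 19 of 1944 pericytes (0.977%; 95% Wilson interval 0.627 to 1.52%, counting error only). Pln had 0.0101 ± 0.0038 transcripts per pericyte, against 2.78 ± 0.61 in Acta2-high cells and 0.0134 ± 0.0052 in endothelial cells (SD, n = 7 sections each). Fmod and Aldh1a2, fibroblast markers outside the rule, were also near the endothelial level. Fmod had 0.0414 per pericyte, against 0.0345 in endothelial cells and 4.52 in fibroblasts, and Aldh1a2 had 0.0777, against 0.0729 and 6.19. Of 7 fibroblast-list genes tested against endothelial cells, 1 (Igf2) was called higher in pericytes and the others were not called (edgeR). These measures go with the label but are no independent test of it. The rule's limits on Acta2, Pdgfra, Dcn and Col1a1 select against cells high in Pln, Fmod or Aldh1a2. Gjc1 and Inpp4b are among the genes picked out by comparisons of these same data. A further limit is that 3 or more transcripts of the endothelial genes Cldn5 and Pecam1 were counted in 1047 pericytes.

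**Figure D1:**
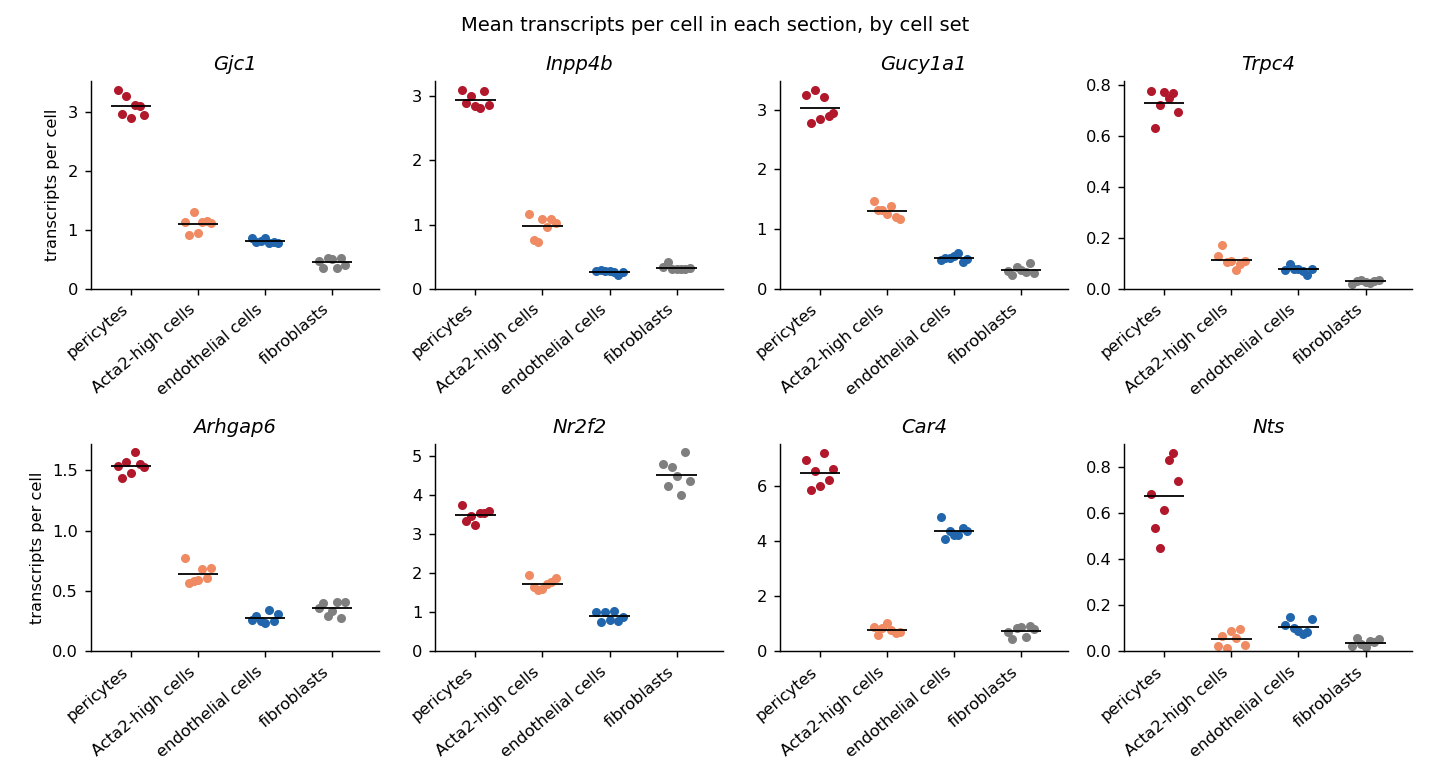
Mean transcripts per cell (y axis, starting at 0) of 8 genes that no cell rule used, in pericytes, Acta2-high cells, endothelial cells and fibroblasts (x axis). Each point is 1 of 7 sections and the line is their mean. Pericytes lie above every other set, as first drawn, for each gene except Nr2f2, where fibroblasts are higher.

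Against endothelial cells, the nearest neighbours of pericytes on the vessel, 96 of 281 genes tested differed, 52 higher (18.5%) and 44 lower (15.7%) in pericytes (34.2% of the genes tested called by edgeR's quasi-likelihood test on sums per section, with the section as a block and a Benjamini-Hochberg adjusted p under 0.05). The 13 genes used by any rule were left out of the totals, the fit and the test. In the list of vascular tone and second messengers 7 of 13 genes tested were higher, and 14 of 15 endothelial-list genes were lower. Each fold is relative to the other transcripts of the cell set. The comparisons with endothelial cells, Acta2-high cells and fibroblasts share the same pericyte sums, so their values are not independent of each other.

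Inpp4b, Trpc4 and Pip5k1b were among the 7 higher genes of the vascular tone list. Inpp4b, which removes a phosphate from the PI3-kinase product PI(3,4)P2, had 2.81, 2.89 and 3.10 transcripts per pericyte (lowest, median and highest of 7 sections), against 0.210, 0.282 and 0.285 in endothelial cells. The ranges do not overlap, and the fold was 11.6 (log2 3.54 ± 0.06 SE, adjusted p = 2.13e-24, edgeR). Trpc4, a calcium-permeable cation channel opened downstream of phospholipase C, had 0.632, 0.749 and 0.777 per pericyte, against 0.0544, 0.0758 and 0.0980 per endothelial cell, 10.2-fold higher (log2 3.35 ± 0.10, adjusted p = 1.70e-19, edgeR). It was counted in 48.1% of pericytes and 6.72% of endothelial cells, or 16.3% and 1.72% with each cell thinned to 50 transcripts. Pip5k1b, a kinase that makes the lipid PI(4,5)P2, had 0.841, 0.893 and 1.12 per pericyte, against 0.293, 0.305 and 0.328 in endothelial cells, 3.20-fold higher.

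Gucy1a1 and Gjc1 were higher as well. Gucy1a1, the alpha subunit of soluble guanylate cyclase, the receptor for nitric oxide, had 2.77, 2.95 and 3.33 transcripts per pericyte, against 0.449, 0.509 and 0.606 in endothelial cells, 6.25-fold higher (log2 2.64 ± 0.06, adjusted p = 1.30e-22, edgeR). Gjc1 had 2.90, 3.10 and 3.37 per pericyte, against 0.774, 0.791 and 0.863 per endothelial cell, 4.03-fold higher (log2 2.01 ± 0.04, adjusted p = 3.17e-22, edgeR). Every section of pericytes lay above every section of endothelial cells for both genes. In the list of vascular tone and second messengers, 7 of 13 genes tested were higher in pericytes and none lower: Gucy1a1, Inpp4b, Trpc4, Pip5k1b, Pde7b, Plch1 and Gng12. The list's median log2 difference was 0.15, against 0.03 over all genes tested. The other gap junction genes tested, Gjb2 and Gjc3, did not pass the test. The 6 other genes of the vascular tone list, among them the muscarinic receptor Chrm2 and the tachykinin receptor Tacr1, did not pass the test. Pde7b, a phosphodiesterase of cyclic AMP, and Gng12, a G protein subunit, were called with small differences of 1.17-fold and 1.11-fold, and their ranges over sections overlap. Neither was called when only pericytes with at most 2 Cldn5 and Pecam1 transcripts were used (adjusted p = 0.0724 for Pde7b and 0.537 for Gng12, edgeR). Plch1 had few transcripts: 0.118 per cell in pericytes with at most 2 Cldn5 and Pecam1 transcripts and 0.0993 in the other pericytes, against 0.0884 in endothelial cells.

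Sntb1, Arhgap6, Ror1, Gfra2 and Marcks, which are in none of the gene lists, were among the other higher genes. Sntb1, the dystrophin-associated adaptor beta-1 syntrophin, had 0.707, 0.744 and 0.842 transcripts per pericyte, against 0.0543, 0.0606 and 0.0843 per endothelial cell, 12.1-fold higher (log2 3.6 ± 0.09, adjusted p = 5.47e-21, edgeR). Arhgap6, a GTPase-activating protein, had 1.53 ± 0.07 per pericyte and 0.280 ± 0.039 per endothelial cell, 5.79-fold higher (SD, n = 7 sections each). Ror1, a receptor of the Wnt5a pathway, had 0.408 ± 0.046 and 0.0807 ± 0.0257, 5.34-fold higher in pericytes. Gfra2, the co-receptor for neurturin, had 1.84 ± 0.20 and 0.596 ± 0.049, 3.25-fold higher. Marcks, an actin-binding substrate of protein kinase C and the gene outside the rules with the most counts in pericytes, had 8.58 ± 0.47 and 4.47 ± 0.43, 2.03-fold higher. For these genes no section of pericytes overlapped with a section of endothelial cells. Over all 281 genes, levels in the 7 sections did not overlap for 56 (19.9%).

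Nr2f2, Igf2 and Nts were also higher. Nr2f2, the nuclear receptor COUP-TFII, known from venous endothelium and from mural cells, had 3.25, 3.54 and 3.76 transcripts per pericyte, against 0.742, 0.890 and 1.04 per endothelial cell, 4.14-fold higher. Igf2, insulin-like growth factor 2, had 2.24, 2.55 and 2.82 per pericyte, against 0.589, 0.686 and 0.718, 3.98-fold higher. Nts, the precursor of the neuropeptide neurotensin, had 0.450, 0.681 and 0.858 per pericyte, against 0.0745, 0.0997 and 0.148, 6.62-fold higher (log2 2.73 ± 0.14, adjusted p = 3.90e-15, edgeR). In the list of growth factors and the IGF axis, 3 of 13 genes tested were higher (Igf2, Igfbp5 and Angpt1) and 1 lower (the VEGF receptor Kdr), with a median log2 difference of 0.05 against 0.03 over all genes. Over all 281 genes 18.5% were higher and 15.7% lower, so these counts are no result about the list. Angpt1, the ligand of the endothelial receptor Tie2, had 0.244 ± 0.047 per pericyte and 0.172 ± 0.022 per endothelial cell, 1.49-fold higher with overlapping ranges.

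Some genes known from brain capillary endothelium were nevertheless higher in pericytes. Car4, a carbonic anhydrase anchored outside the cell, had 5.85, 6.54 and 7.20 transcripts per pericyte, against 4.07, 4.36 and 4.87 per endothelial cell, 1.56-fold higher (log2 0.65 ± 0.04, adjusted p = 4.54e-14, edgeR). Cobll1 had 3.30, 3.50 and 3.86 per pericyte, against 1.98, 2.19 and 2.34, 1.70-fold higher, and was the 1 of 15 endothelial-list genes tested that was higher. The other 14 were lower, with a list median log2 difference of -1.48. Sox17, a transcription factor of endothelium, had 0.361 ± 0.080 per pericyte and 1.80 ± 0.06 per endothelial cell, 4.72-fold lower in pericytes. Ly6a (Sca-1) had 3.63 ± 0.45 and 11.8 ± 0.5, 3.09-fold lower, Cd93 had 0.639 ± 0.125 and 2.46 ± 0.125, 3.65-fold lower, and Kdr had 1.45 ± 0.16 and 4.40 ± 0.25, 2.87-fold lower. Since Cldn5 and Pecam1 chose the endothelial cells, cells high in this list were selected on 1 side.

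The astrocyte list summed to 10.8 transcripts per pericyte (9.53 to 12.0 by section), against 10.97 per endothelial cell (10.2 to 11.8). Of 6 genes tested, Aqp4 and Gfap were called higher in pericytes at 1.09-fold and 1.12-fold, and neither was called without cells of more than 1 Spag16 or Htr2c transcript (adjusted p = 0.130 and 0.315, edgeR). The neuron list summed to 11.9 (10.4 to 13.9), against 12.7 (11.4 to 14.9), with 2 of 13 genes tested lower (Bcl11b and Meis2). That sum covers all 17 genes of the list. The rules of all 4 cell sets cap 4 of them (Slc17a6, Slc17a7, Gad1 and Gad2), so the sums were partly fixed by the rules. None of 8 microglial and none of 4 oligodendrocyte-lineage genes were called. Over all 281 genes tested 18.5% were higher and 15.7% lower, so the neuron count lies near the share over all genes and is no result about that list. The ependymal marker Spag16 was called higher in pericytes, with 0.0659 ± 0.0148 transcripts per pericyte and 0.0422 ± 0.0122 per endothelial cell, log2 0.72 ± 0.20 (adjusted p = 0.00703, edgeR; SD, n = 7 sections each). Its ranges overlap. Without cells of more than 1 Spag16 or Htr2c transcript it was at log2 0.27 (adjusted p = 0.508, edgeR). That limit uses Spag16 itself, so the second value is no test of this gene. The part of these neighbours' transcripts in single results was not tested.

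**Figure D2:**
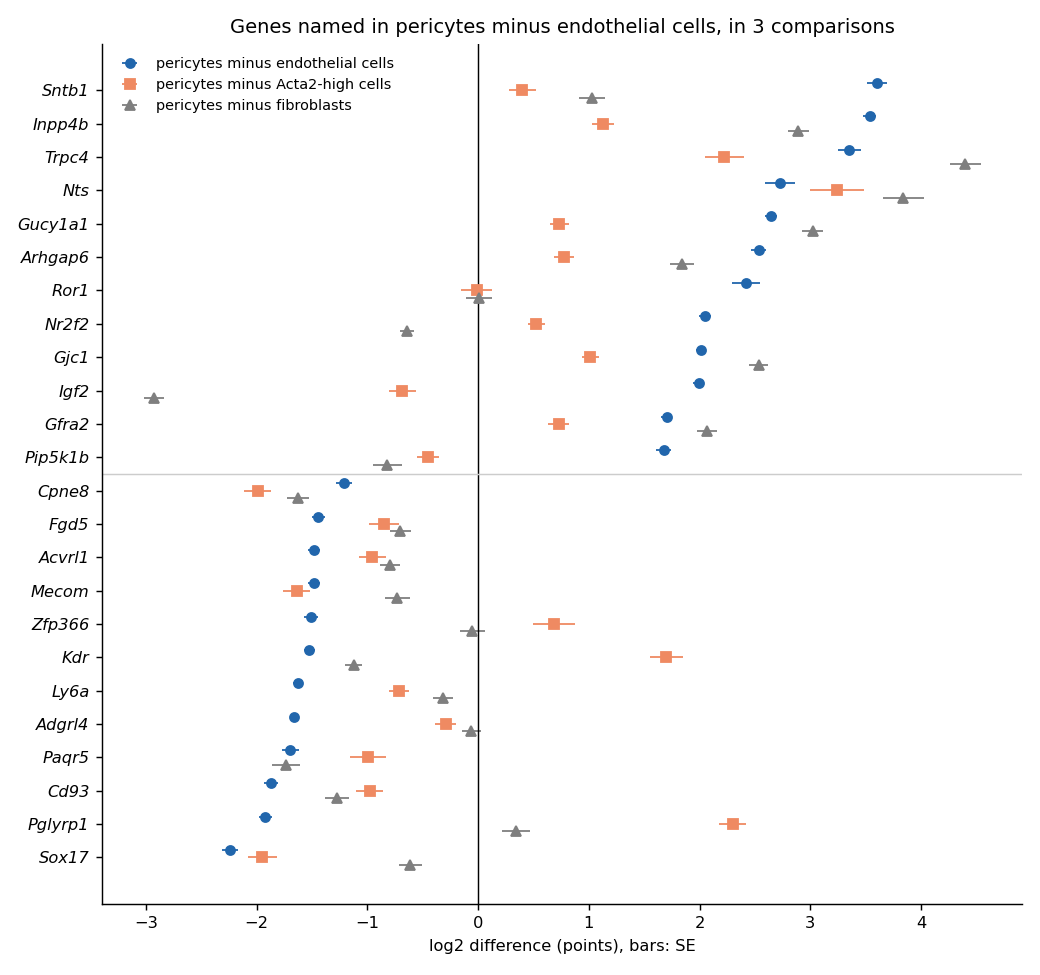
Log2 differences (x axis, points; bars are SE) of the 24 genes named in pericytes minus endothelial cells (y axis), in that comparison and in pericytes minus Acta2-high cells and minus fibroblasts, as first drawn. The genes at the top are 3.20- to 12.1-fold higher in pericytes than in endothelial cells, while Igf2, Pip5k1b and Nr2f2 lie below 0 against fibroblasts.

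Endothelial transcripts divided the pericytes themselves. At most 2 Cldn5 and Pecam1 transcripts were counted in 897 pericytes (46.1%; 38.5 to 49.6% by section), and 3 or more in the other 1047. The first had a median of 177 transcripts per cell and the second 230. In pericytes with few of these transcripts Ly6a averaged 1.52 per cell, against 5.46 in the other pericytes and 11.8 in endothelial cells, and Adgrl4 averaged 0.826, against 3.37 and 7.30. The division and the endothelial set both used Cldn5 and Pecam1, so differences in genes that go with them were partly selected. Mural genes differed less: Trpc4 had 0.724 in pericytes with few endothelial transcripts, against 0.733 in the others and 0.0753 in endothelial cells, and Gucy1a1 had 2.86, against 3.18 and 0.513. Car4 stayed above the endothelial level in pericytes with few endothelial transcripts, at 5.39 per cell against 4.38 in endothelial cells, and so did Cobll1, at 2.96 against 2.20. Emcn (endomucin), a sialomucin of capillary and venous endothelium, had 1.38, against 2.35 in the other pericytes and 2.71 in endothelial cells. With only the pericytes low in Cldn5 and Pecam1 in the fit, Car4 was still called higher than in endothelial cells (log2 0.46) and Cobll1 too (log2 0.59), Inpp4b (log2 3.48) and Gjc1 (log2 1.90) changed little, and Sox17 moved to log2 -4.37.

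**Figure D3:**
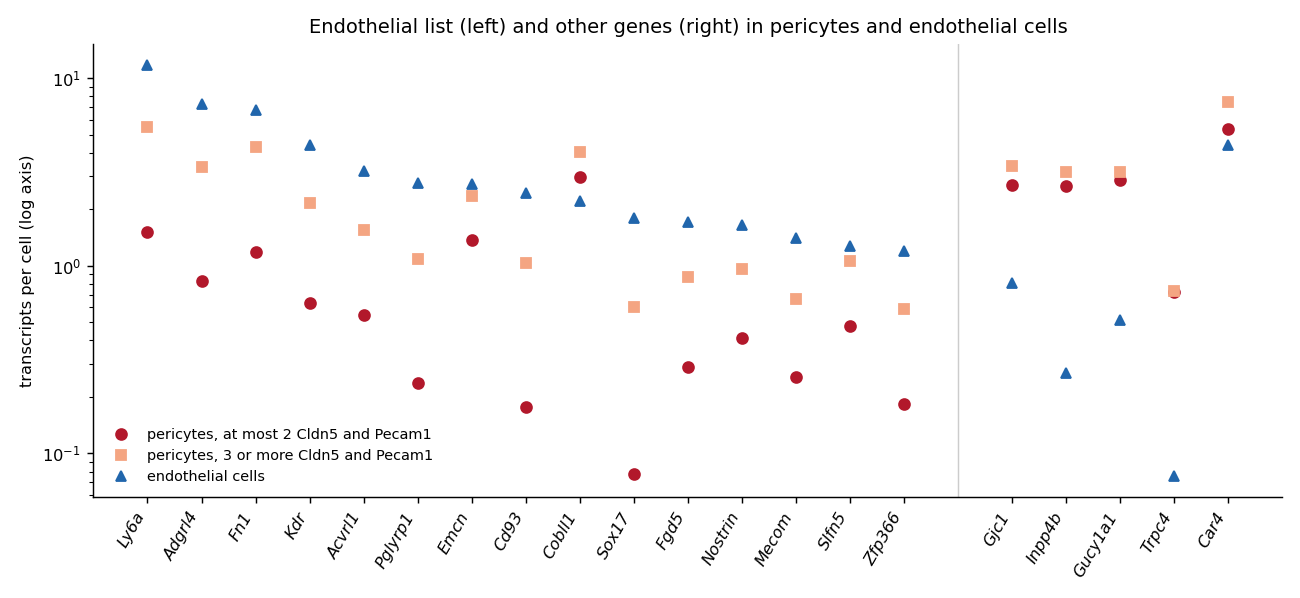
Mean transcripts per cell (y axis, log scale) of the 15 endothelial-list genes outside the rules and of 5 other genes (x axis), over all cells of pericytes with at most 2 Cldn5 and Pecam1 transcripts, other pericytes and endothelial cells. Most of the list is lowest in the first of these and highest in endothelial cells, while Cobll1, Gjc1, Inpp4b, Gucy1a1, Trpc4 and Car4 stay above the endothelial level in both kinds of pericyte.

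Against the Acta2-high cells, 208 of 276 genes tested differed (75.4% called, edgeR), 102 higher (37%) and 106 lower (38.4%) in pericytes. That set was mixed: 365 of its 1175 cells (31.1%) held at least 3 transcripts of the ciliary gene Spag16, a marker of ependymal cells, and these had 15.9 Cd24a and 0.0219 Pln transcripts per cell, against 0.984 Cd24a and 4.0 Pln in the rest. Only 11 pericytes (0.566%) held as many Spag16. The comparison was therefore repeated after the data were seen, with at most 1 Spag16 and at most 1 Htr2c transcript in every cell of every set. This left 774 Acta2-high cells and 1856 pericytes, and 146 of 266 genes were called, 76 higher and 70 lower.

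Car4, Emcn, Trpc4 and Nts were called higher in pericytes than in Acta2-high cells both with all cells and without the Spag16 and Htr2c cells. Car4 had 6.49 ± 0.49 transcripts per pericyte and 0.791 ± 0.146 per Acta2-high cell, 5.91-fold higher (log2 2.56 ± 0.09, adjusted p = 1.27e-11, edgeR), and log2 1.90 without those cells. Emcn had 1.90 ± 0.15 and 0.134 ± 0.044, 10.5-fold higher, and log2 2.89 without them. Trpc4 was 4.67-fold higher (log2 2.22, and 1.57 without them), with 0.113 ± 0.030 per Acta2-high cell. Nts was 9.44-fold higher (log2 3.24, and 2.71 without them), with 0.0538 ± 0.0323 per Acta2-high cell. The sections of pericytes and of Acta2-high cells did not overlap for these 4 genes. Pln, whose levels are given above, passed the filter on low counts here through the Acta2-high cells, and had too few counts to be tested against endothelial cells or between positions in pericytes, so its difference is a description. Over all genes tested, levels did not overlap for 133 of 276 (48.2%).

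Other mural genes differed less from Acta2-high cells, and some differences depended on the mixed cells. Gjc1 had 3.10 ± 0.18 transcripts per pericyte and 1.10 ± 0.13 per Acta2-high cell, log2 1.01, and log2 0.48 without the Spag16 and Htr2c cells (adjusted p = 8.55e-05, edgeR). Inpp4b was at log2 1.13 with all cells and 0.43 without them, called both times. Gucy1a1 had 1.31 ± 0.11 per Acta2-high cell with all cells and 1.87 ± 0.29 without those cells, and its difference was log2 0.73, a call, with all cells and 0.04 without them (adjusted p = 0.663, edgeR). Nr2f2 was at log2 0.53, a call, and 0.11 (adjusted p = 0.233, edgeR), and Sntb1 at log2 0.40, a call, and -0.07 (adjusted p = 0.665, edgeR). Igf2 was lower in pericytes both times, log2 -0.68 and -0.87. Genes of the Spag16 cells, such as Cd24a and Pamr1, were lower in pericytes at log2 -5.23 and -3.74, and at -2.84 and -0.67 without those cells.

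All 7 fibroblast genes tested were lower in pericytes than in Acta2-high cells (median log2 -2.27, against 0.03 over all genes; 38.4% of all genes were lower). Of the 15 endothelial genes tested 6 were higher (Kdr, Emcn, Pglyrp1, Nostrin, Slfn5 and Zfp366) and 8 lower, beside 37% higher and 38.4% lower over all genes. The summed level of all 17 genes of the list, with Cldn5 and Pecam1, was 26.0 per pericyte (23.1 to 31.5 by section) and 26.2 per Acta2-high cell (19.8 to 29.6). In the vascular tone list 8 of 13 were higher and 3 lower (Pln, Pip5k1b and Plch1), beside the same 37% and 38.4%, and Plch1 turned to log2 0.18 without the Spag16 and Htr2c cells. Pln passed the filter through the Acta2-high cells, so its part in this count is a description. The oligodendrocyte-lineage list, 4 of 4 higher, summed to 2.83 per pericyte and 1.01 per Acta2-high cell. The neuron list, with the 4 genes that the rules cap, summed to 11.9 and 9.0. The part of these neighbours' transcripts in the comparison was not tested.

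Against fibroblasts, 236 of 281 genes tested differed (84% called, edgeR), 125 higher (44.5%) and 111 lower (39.5%) in pericytes. The fibroblast set also held other cells: 495 of 4580 (10.8%) had at least 3 Spag16 transcripts, and Htr2c, a serotonin receptor known from the choroid plexus epithelium, averaged 3.20 per cell. Without cells of more than 1 Spag16 or Htr2c transcript, 3317 fibroblasts were left and 219 of 274 genes were called, 120 higher and 99 lower. Levels by section did not overlap for 172 of 281 genes (61.2%) with all cells.

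Trpc4, Nts, Gucy1a1, Car4, Inpp4b and Gjc1 were higher. In the vascular tone list 8 of 14 genes tested were higher, 3 lower (Pln, Pip5k1b and Plch1) and 3 did not pass the test, beside 44.5% higher and 39.5% lower over all genes. Pln had too few counts to be tested between positions in pericytes, so its part in this count is a description as well. Trpc4 had 0.730 ± 0.052 transcripts per pericyte and 0.0285 ± 0.0058 per fibroblast, 21.1-fold higher (log2 4.40 ± 0.14, adjusted p = 4.97e-12, edgeR). Nts was 14.3-fold higher, Gucy1a1 8.11-fold, Car4 7.46-fold, Inpp4b 7.43-fold and Gjc1 5.79-fold, each with no overlap of sections. Without the Spag16 and Htr2c cells the log2 differences of these 6 genes lay between 2.67 (Inpp4b) and 4.23 (Trpc4), and each was still called. Sntb1 was at log2 1.03 with all cells and 3.16 without them, and Pdzd2, a PDZ-domain protein, at 0.96 and 1.82.

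Genes of the fibroblast list and most genes of the growth factor list were lower, while matrix and adhesion genes went both ways. Fmod, the collagen-binding proteoglycan fibromodulin, was at log2 -7.04, Aldh1a2, an enzyme of retinoic acid synthesis, at -6.59, and Slc13a4, a sulfate transporter, at -5.65. All 7 fibroblast-list genes tested were lower (median log2 -5.65, against 0.07 over all genes). In the growth factor list 11 of 13 were lower and 2 higher (Bdnf and Rspo1), beside 39.5% lower and 44.5% higher over all genes. Of 16 matrix and adhesion genes tested, 9 were lower, 5 higher (Col19a1, Cdh13, Cdh4, Cdh20 and Nell1) and 2 did not pass the test, with a median log2 difference of -0.71. Igf2 had 2.50 ± 0.21 per pericyte and 15.8 ± 1.8 per fibroblast, 7.60-fold lower, so its level in pericytes lay between endothelial cells and fibroblasts, without overlap of sections with either. Nr2f2 had 3.50 ± 0.17 and 4.53 ± 0.37, 1.56-fold lower. The neuron list, with the 4 genes that the rules cap, summed to 11.9 per pericyte and 4.99 per fibroblast. Of the 13 genes tested 12 were called higher and 1 lower (Cux2), and the part of neighbouring neurons in the comparison was not tested.

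Nts was not spread evenly over pericytes. It was counted in 26.3% of them (19.2 to 31.4% by section), against 7.69% of endothelial cells, or 9.98% and 1.98% with each cell thinned to 50 transcripts. The 168 pericytes with 3 or more Nts transcripts (8.64%, 16 to 29 in each section) held 65.9% of all Nts transcripts in pericytes. These cells also held more transcripts known from striatal projection neurons: Ppp1r1b (DARPP-32) averaged 5.61, against 1.67 in the 1433 pericytes with none, and Penk (proenkephalin) 3.02, against 0.756. Mural genes differed less, with Gjc1 at 3.51, against 3.0, and Inpp4b at 3.19, against 2.86. Median transcripts per cell were 249.5, against 197.

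To set this against endothelial cells, both sets were divided after the data were seen by the number of Ppp1r1b, Penk and Bcl11b transcripts in the cell. With 0 to 1 of these, Nts averaged 0.405 ± 0.071 transcripts in pericytes and 0.0593 ± 0.0250 in endothelial cells (SD over 7 sections; 1119 and 3236 cells). With 10 or more, it averaged 1.67 ± 0.59 in pericytes (0.696 to 2.32 by section) and 0.260 ± 0.081 in endothelial cells (0.155 to 0.378; 287 and 975 cells). Section means of pericytes and endothelial cells did not overlap in these 2 classes, nor in the class of 2 to 4 (0.459 to 1.103 in pericytes and 0.0464 to 0.184 in endothelial cells). They overlapped in the class of 5 to 9 (0.0769 to 1.56 and 0.0943 to 0.288), where 1 section held as few as 10 pericytes. Igf2 averaged 2.22 ± 0.17 in pericytes with 0 to 1 striatal-type transcripts and 3.52 ± 0.44 with 10 or more, against 0.629 ± 0.052 and 0.487 ± 0.109 in endothelial cells. Gjc1 averaged 3.03 ± 0.25 and 3.44 ± 0.30 in pericytes, and Trpc4 0.704 ± 0.083 and 0.748 ± 0.079. Gucy1a1 and Car4 differed more: Gucy1a1 averaged 2.84 ± 0.30 and 3.89 ± 0.65 in pericytes, against 0.346 ± 0.037 and 1.07 ± 0.16 in endothelial cells. Car4 averaged 6.19 ± 0.61 and 8.27 ± 0.85 in pericytes, against 4.38 ± 0.36 and 4.38 ± 0.43 in endothelial cells. Median transcripts per pericyte were 187 and 280 in these classes, and 198 and 296 per endothelial cell, and the part of depth was not tested. These are descriptions with no test, and cell positions were not used here.

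**Figure D4:**
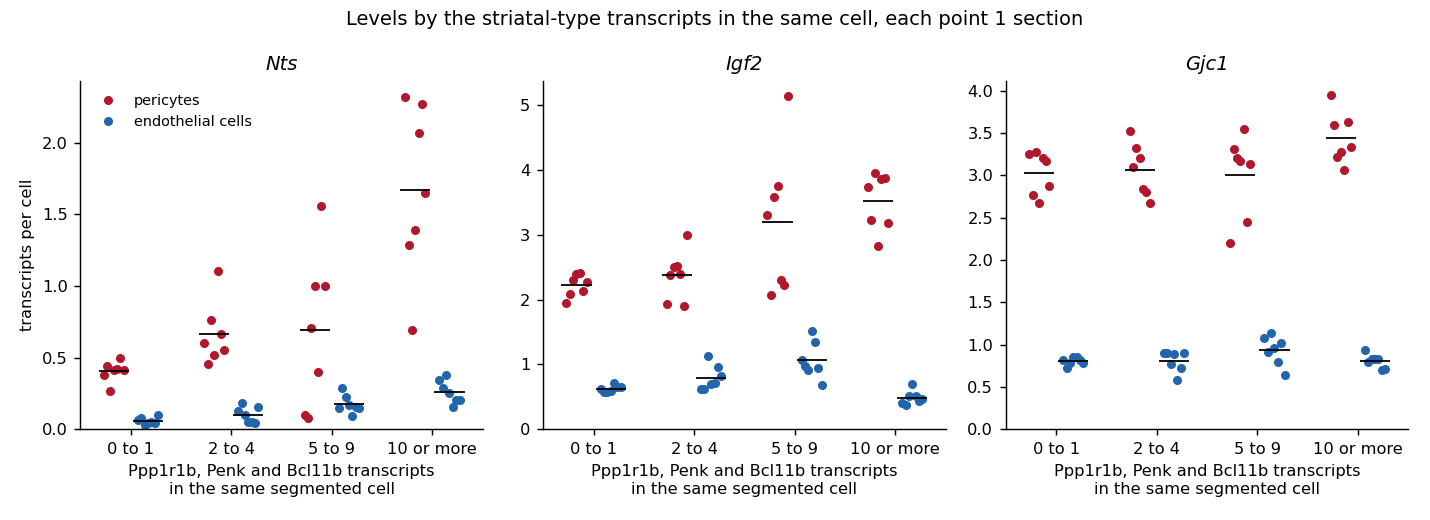
Mean transcripts per cell (y axis, starting at 0) of Nts, Igf2 and Gjc1 in pericytes and endothelial cells, by the number of Ppp1r1b, Penk and Bcl11b transcripts in the same segmented cell (x axis). Points are sections and lines their means: Nts in pericytes averages 0.405 at 0 to 1 and 1.67 at 10 or more such transcripts, against 0.0593 and 0.260 in endothelial cells.

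The share of pericytes showed no difference beyond the spread between sections. Of cells with at least 50 transcripts, pericytes made up 0.534, 0.482 and 0.482% in posterior replicates 1, 3 and 4, 0.530 and 0.530% in intermediate replicates 1 and 2, and 0.471 and 0.615% in anterior replicates 1 and 2. The lowest and the highest section were both anterior, and their 95% Wilson intervals (0.415 to 0.534% and 0.553 to 0.685%, counting error only) do not overlap. Posterior minus anterior was -0.0440 percentage points (two-sided exact permutation test, p = 0.7; the smallest p that 3 against 2 sections allow is 0.1). Without anterior replicate 2 the difference turned to 0.0282, and without anterior replicate 1 it was -0.116. Per 100 endothelial cells there were 33.7 ± 3.0 pericytes in posterior sections, 34.9 ± 2.6 in intermediate and 32.0 ± 3.4 in anterior sections (SD, n = 3, 2 and 2), and the difference turned to 1.69 (exact permutation p = 0.7). On the slide that holds replicates 1 and 2, the 1 posterior section lay between the 2 anterior ones.

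**Figure D5:**
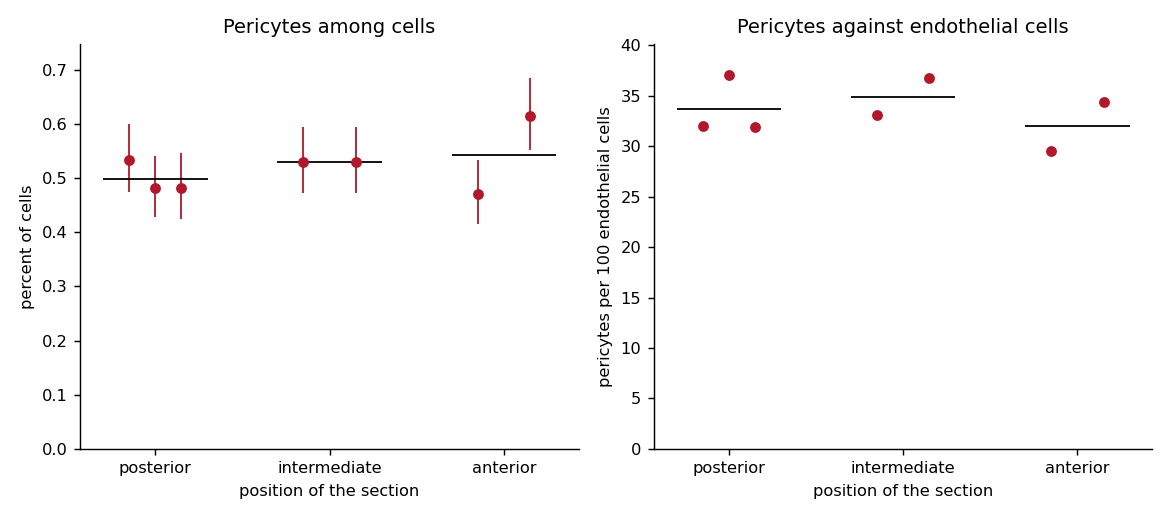
Pericytes as a percent of cells with at least 50 transcripts (left, bars are 95% Wilson intervals) and per 100 endothelial cells (right) in each section (points), by position (x axis), with the mean of each position as a line. Posterior, intermediate and anterior sections overlap on both measures, and the 2 anterior sections are the lowest and the highest on the left.

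Gene levels in pericytes were also compared along the axis, with 1 fit over the 7 sections and no block. Replicates 3 and 4, both posterior, lie on a slide of their own, so position and slide are partly confounded. No gene passed an adjusted p of 0.05 in edgeR for posterior minus anterior (0 of 271 called; 30 at an unadjusted p under 0.05), intermediate minus anterior (0 of 271; 6 unadjusted) or posterior minus intermediate (0 of 271; 27 unadjusted). DESeq2 called 1, 0 and 0. In posterior minus anterior, the gene with the smallest p, and the 1 called by DESeq2, was Pcp4, a calmodulin-binding protein known from neurons. It had 2.48, 1.72 and 2.36 transcripts per pericyte in posterior replicates 1, 3 and 4, 2.77 and 3.34 in intermediate replicates 1 and 2, and 2.90 and 3.61 in anterior replicates 1 and 2, and posterior minus anterior was log2 -0.58 ± 0.13 (adjusted p = 0.184, edgeR; 0.0196, DESeq2). Posterior sections lay below the others without overlap. On the slide of replicates 1 and 2, which holds every position, Pcp4 was at log2 -0.46 ± 0.13 (adjusted p = 0.247, edgeR). In endothelial cells Pcp4 was at log2 -0.59 ± 0.11, and it and Ppp1r1b were the 2 of 281 genes called (0.712%). On the slide of replicates 1 and 2 none of the 281 were called in endothelial cells, where Pcp4 was at log2 -0.52 ± 0.14 (adjusted p = 0.667, edgeR). Over all other cells Pcp4 was at log2 -0.37 ± 0.08, and none of 284 genes passed edgeR (32 unadjusted).

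Genes high in pericytes had small differences between positions, none of them called. Gjc1 had 3.20 ± 0.21 transcripts per pericyte in posterior, 3.01 ± 0.16 in intermediate and 3.02 ± 0.12 in anterior sections (SD, n = 3, 2 and 2), with posterior minus anterior at log2 0.08 ± 0.10. Inpp4b was at log2 0.01 ± 0.10, Gucy1a1 at 0.09 ± 0.10, Trpc4 at -0.04 ± 0.15 and Car4 at 0.00 ± 0.09. Nts had 0.556 ± 0.117 in posterior, 0.721 ± 0.152 in intermediate and 0.799 ± 0.084 in anterior sections (SD, n = 3, 2 and 2). Posterior minus anterior was log2 -0.52 ± 0.19 for Nts (edgeR, unadjusted p = 0.0178, adjusted p = 0.304), beside a posterior minus anterior difference of log2 -0.36 ± 0.13 for Ppp1r1b in the same pericytes. On the slide of replicates 1 and 2 these were log2 -0.30 ± 0.21 for Nts (adjusted p = 0.663, edgeR) and -0.16 ± 0.13 for Ppp1r1b. A test of whether the posterior minus anterior difference in pericytes differed from that in endothelial cells called 0 of 281 genes (13 unadjusted; DESeq2 0), and from that in all other cells 0 of 284 (17 unadjusted; DESeq2 0). For Nts the interaction with endothelial cells was log2 -0.64 ± 0.30 (adjusted p = 0.945, edgeR). A p above the threshold with 2 or 3 sections a position does not show equal levels.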

How the data were processed

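The authors' deposited table holds raw counts of decoded transcripts for each gene in each cell, and their deposited cell table gives totals, control probe counts and the section of each cell. The submitters' processing notes name Seurat, with no version; the sources used here do not give the segmentation or cell filters. Cell sums equalled the deposited totals in 100% of cells. Of 297 symbols, 296 matched RefSeq.

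Cell sets and gene lists were chosen with earlier results of these data known. No doublet caller was run. Counts were summed per section and cell set and tested with edgeR 4.0.16 (limma 3.58.1, R 4.3.3): filterByExpr, which a gene can pass through 1 cell set alone, TMM scaling, glmQLFit and glmQLFTest, with the section as a block for cell sets and interactions and none for positions. Leaving rule genes out, 284 genes remained. The SE is the log2 difference over the square root of F. Scripts were tested on simulated counts. DESeq2 1.42.0 was an alternative. Shares used exact permutation tests (scipy 1.17.1) in Python 3.11.15, with pandas 2.3.3 for tables.

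Named genes were, for each cell set comparison, the 12 called genes furthest from 0 on the log2 scale each way that moved one way in all 7 sections and had at least 0.1 transcripts per cell in the higher set; for positions, called genes up to 10 in each direction; the 12 highest genes of pericytes; rule genes; and list members as examples. Pcp4, Ppp1r1b, Penk, the Nts division and the promoter motifs were chosen after their values were seen.

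Alternatives were library size scaling, no low-count filter, DESeq2, a stricter pericyte rule (at least 5 of Ano1 and Carmn, 8 with Cspg4), pericytes with at most 2 Cldn5 and Pecam1 transcripts, cells with at least 100 transcripts, rule genes kept, each section left out, other denominators and thinning for shares, the replicate block and 1 slide only. A limit of 1 Spag16 and 1 Htr2c transcript, and 1 slide only for endothelial cells and all other cells, were added after seeing the data.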

Additional observations from a re-analysis of the deposited data

How the results depend on the processing

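Counts of called genes against Acta2-high cells, endothelial cells and fibroblasts stayed within 1.5 times under every alternative run: 146 to 223, 72 to 100 and 219 to 249. Leaving out 1 section at a time gave 199 to 207, 84 to 94 and 224 to 235. Without the section block (no replicate block) the counts were 203, 72 and 227. Position contrasts and interactions had 0 calls in every alternative, the replicate block included, except DESeq2 for posterior minus anterior (1). Replicates 1 and 2 of the anterior and intermediate sections deviated together with a correlation of 0.168 over 271 genes, which with 2 pairs does not show that the numbers pair the sections. The share of pericytes, posterior minus anterior, ran from -0.116 to 0.0282 without 1 section, turned to 0.0282 without anterior replicate 2 and to 1.69 per 100 endothelial cells; the cause was not tested. Single genes were checked in 139 pairs of a gene and a comparison. The genes were those named in that comparison and those called the same way against all 3 sets. Library size in place of TMM turned the sign of 3 pairs (Kctd12 to 0.0146 against Acta2-high cells, Epha4 to 0.0195 and Ly6a to 0.12 against fibroblasts). The limit on Spag16 and Htr2c turned 4 (Clmn to 0.56, Plch1 to 0.18 and Sntb1 to -0.0717 against Acta2-high cells, and Clmn to 0.11 against fibroblasts) and ended 7 other calls of 136. Leaving out 1 section ended 8 calls at least once and turned none. Depth limits genes with few transcripts per cell, and neighbours' transcripts in segmented cells were not removed.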

Other observations

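Matrix, guidance and transcription factor genes went both ways between pericytes and endothelial cells, beside 18.5% higher and 15.7% lower over all 281 genes tested. Of 16 matrix and adhesion genes tested, 4 were higher in pericytes (Spp1, Cd44, Cdh4 and Thsd7a) and 3 lower (Fn1, Hapln1 and Cdh13), with a median log2 difference of 0.13 against 0.03 over all genes. Spp1 (osteopontin) had 0.133 ± 0.039 transcripts per pericyte and 0.0501 ± 0.0075 per endothelial cell, 2.80-fold higher, and Cdh4 (R-cadherin) 0.496 ± 0.067 and 0.182 ± 0.012, 2.86-fold higher (SD, n = 7 sections each). Fn1 (fibronectin) had 2.87 ± 0.40 and 6.75 ± 0.50, 2.23-fold lower. Of 10 guidance genes, Epha1 was higher and Sema6a and Epha4 were lower. Epha1 was near the floor: 0.0256 per cell in pericytes with at most 2 Cldn5 and Pecam1 transcripts and 0.0201 in the others, against 0.00862 in endothelial cells. It had too few counts to be tested between positions in pericytes, so its difference is a description. Of 17 transcription factors tested, 3 were higher (Nr2f2, Ebf3 and Eya4) and 6 lower (Mecom, Sox17, Bhlhe40, Meis2, Zfp366 and Foxp1). Bhlhe22, outside these lists, had 0.524 ± 0.082 per pericyte and 0.245 ± 0.030 per endothelial cell, 2.25-fold higher, and Pdzd2 had 2.30 ± 0.11 and 1.03 ± 0.05, 2.37-fold higher; both were also called higher against Acta2-high cells (log2 1.27 and 1.31) and fibroblasts (log2 1.41 and 0.96), which share the pericyte sums. Without cells of more than 1 Spag16 or Htr2c transcript these were log2 0.63 and 1.49 against Acta2-high cells and 1.13 and 1.82 against fibroblasts.

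Cells with the 3 pericyte markers and 2 to 5 Acta2 transcripts, which the rule leaves out, numbered 107. They averaged 2.39 Gjc1, 2.80 Inpp4b and 4.72 Car4 transcripts at a median of 157 transcripts per cell, against 3.09, 2.94 and 6.49 in pericytes at a median of 205.5.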
